A study of Homo sapiens with 18 samples.

Results

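The 9 genes described here are the retinoic acid receptors RARA, RARB and RARG, the cellular retinoic acid binding proteins CRABP1 and CRABP2, the retinal reductase DHRS3, and RARRES1, RARRES2 and RARRES3, which were named as retinoic acid receptor responders. They were chosen by symbol from the 57445 genes of the count table, and the set was chosen by the measured values of RARRES2, which had been seen to rise strongly at passage 1 and to fade later. RARRES2 is therefore described with no test. All 9 genes had a row (RARRES3 is also called PLAAT4), and 6 of them passed the filter on low counts that left 16187 genes to test. The 3 that did not pass were RARRES1, RARB and CRABP1.

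The libraries came from MiaPaCa-2, a standard human pancreatic cancer cell line, of wild-type genotype in every group. The parental line was grown in vitro and never injected. The other cells were injected into the sciatic nerve. Leaders are the cells recovered from the front of the invasion and laggers those from its rear, and leaders were regrown in vitro and reinjected up to passage 4. The 6 groups, with 3 libraries each, were the parental line, the laggers of passage 1, and the leaders of passages 1, 2, 3 and 4. Laggers were sequenced at passage 1 alone. The labels name 1 cell line and give neither the host's strain nor age, and they do not say whether the 3 libraries of a group are separate cultures or animals. The p-values then reflect only how far these samples spread, which may be technical. The labels also do not say whether RNA was taken at harvest or after regrowth.

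Retinoic acid is made from vitamin A. Alcohol is oxidised to retinal, and aldehyde dehydrogenases of the ALDH1A family oxidise retinal to the acid, while DHRS3 turns retinal back into the alcohol and so lowers the supply. CRABP2 carries the acid to the nucleus, where the receptors RARA, RARB and RARG, each paired with an RXR, bind direct repeats of a short half-site and switch target genes on when the acid is bound, or hold them down with corepressors such as NCOR1 when it is not. DHRS3, CRABP2 and RARB are themselves textbook target genes. RARRES2 encodes chemerin, a secreted attractant of immune cells, and RARRES3 a phospholipase that restrains growth in several cell types.

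In the cells recovered from nerve, the 6 members that passed the filter did not share a direction. RARRES2 went from 1 or 2 counts in each parental library to 25.8 to 435 CPM (counts scaled to library size) at passage 1, and then to 1.11 to 9.03 CPM at passages 2 to 4. RARRES3 was higher than in the parental line in all 5 injected groups. RARG was lower in all 5, and RARA passed the test as lower in 3. CRABP2 was higher in leaders of passages 1, 3 and 4 and low at passage 2, and DHRS3 was higher in laggers and lower in passage 4 leaders. CRABP1 had no count anywhere, and RARB and RARRES1 had a few.

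The stretches just upstream of 4 of these genes are shown because RARRES2 and DHRS3 both stood lower at passage 4 than at passage 1, CRABP2 stood higher, and RARB, whose promoter is the classic example of a retinoic acid response element, was barely detected. Each is the run of 250 bases that ends at the base before a RefSeq start site in GRCh38.p14, written 5′ to 3′ on the gene's strand. Capitals mark half-sites, searched on both strands in 4 forms. The first form was AGGTCA, the usual spelling of this receptor family. The second form searched was GGGTCA instead. The third form searched was AGTTCA instead. The remaining form searched was GGTTCA, as found in RARB. The windows lie at chr7:150341630-150341879 on the minus strand for RARRES2, chr3:25428013-25428262 on the plus strand for RARB (the third of its 4 starts), chr1:156705785-156706034 on the minus strand for CRABP2, and chr1:12618211-12618460 on the minus strand for DHRS3 (the outermost of its 3 starts).
RARRES2: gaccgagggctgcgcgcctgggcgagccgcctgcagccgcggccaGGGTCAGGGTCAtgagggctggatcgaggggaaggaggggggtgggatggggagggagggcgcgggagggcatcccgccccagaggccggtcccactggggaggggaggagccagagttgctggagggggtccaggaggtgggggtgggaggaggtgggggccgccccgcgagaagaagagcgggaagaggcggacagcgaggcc
RARB: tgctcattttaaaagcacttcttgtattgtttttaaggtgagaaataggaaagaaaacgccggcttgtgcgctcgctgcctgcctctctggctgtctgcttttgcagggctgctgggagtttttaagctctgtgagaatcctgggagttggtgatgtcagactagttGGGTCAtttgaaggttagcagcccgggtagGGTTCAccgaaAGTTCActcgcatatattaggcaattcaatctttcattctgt
CRABP2: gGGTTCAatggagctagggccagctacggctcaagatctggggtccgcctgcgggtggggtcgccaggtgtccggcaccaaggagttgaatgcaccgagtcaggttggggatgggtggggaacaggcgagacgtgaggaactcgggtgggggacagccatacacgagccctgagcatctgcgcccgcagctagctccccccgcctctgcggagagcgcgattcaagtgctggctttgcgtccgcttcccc
DHRS3: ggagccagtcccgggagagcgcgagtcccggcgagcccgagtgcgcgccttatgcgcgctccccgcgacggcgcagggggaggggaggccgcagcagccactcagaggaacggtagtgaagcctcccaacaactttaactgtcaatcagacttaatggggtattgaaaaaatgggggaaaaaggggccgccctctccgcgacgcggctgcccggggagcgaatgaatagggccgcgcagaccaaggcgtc

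The RARB window held half-sites that begin at positions -53 and -42 from the start and form a direct repeat with 5 bases between them, and another at -83. The RARRES2 window held 2 copies of GGGTCA side by side, which begin at positions -205 and -199 from the start with no base between them, and the CRABP2 window held 1 half-site at its far end. The DHRS3 window held none, while each of the other 2 windows of DHRS3 held 1. Of the members, 8 of 9 matched the RefSeq table, with 15 windows, and the RARB window was the only one of the 15 with a direct repeat spaced by 1, 2 or 5 bases. The forms GGTTCA and AGTTCA and the spacer of 5 bases are those of the RARB repeat itself, so its match follows from what was searched. Over all 35116 windows of the same length, 33.8% held at least 1 half-site, and 0.0968%, 0.0313% and 0.074% held direct repeats with spacers of 1, 2 and 5 bases, so a half-site alone is common. Repeats with no base between them, as in RARRES2, were not counted over these windows. These are matches of letters in a short window, and they say nothing of what binds there.

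Gene counts ranged from 15113462 to 39373248 per library, and levels are CPM from library sizes with edgeR's TMM scaling. Mitochondrially encoded genes took 0.47% to 0.87% of gene counts in the parental line, 5.60% to 8.57% at passage 1 in laggers and leaders together, and 1.95% to 3.90% at later passages. Passage 3 leader replicate 2 stood apart, with 24.8% of its entries unaligned and 5 red cell markers (4 haemoglobin genes and ALAS2) summing to 21051 CPM against at most 3.29 CPM elsewhere. Nearly all of that sum was HBB at 21021 CPM, with HBD at 30.2 CPM. Over the passage 3 leaders together HBA1 had 1 count, HBA2 had 2 and ALAS2 had 0. Of the features of the line, KRT8, KRT18 and VIM were expressed in every group and CDKN2A had 6 counts in all. CDH1 had 0 counts in the parental libraries, so its 1026 counts all lay in the injected groups, with up to 392 in a library. In bulk RNA, fewer cells of a type and less RNA per cell cannot be told apart.

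The 5 testable members other than RARRES2 were read against all tested genes. A gene was called at an adjusted p under 0.05 (edgeR quasi-likelihood test, 1 fit of all 18 libraries, Benjamini-Hochberg over 16187 genes). Between laggers and the parental line 4 of the 5 were called, 2 higher and 2 lower, where 39.3% of all tested genes were called, 21.5% higher and 17.8% lower. Between passage 1 leaders and the parental line it was again 4 of 5, 2 in each direction, against 45.7% (23.2% higher, 22.4% lower). Passage 2 leaders gave 3 of 5, with 1 higher and 2 lower, against 29.9% (15.1% and 14.8%). Passage 3 leaders gave 3 of 5, with 2 higher and 1 lower, against 24.6% (13.8% and 10.8%). Passage 4 leaders gave 4 of 5, with 2 in each direction, against 27.7% (14.8% and 12.9%). None of the 5 was called between passage 1 leaders and laggers by edgeR, where 0.0618% of all genes were (0.0185% higher and 0.0432% lower, 10 genes, with 2338 at an unadjusted p under 0.05), while 3 of the 5 had an unadjusted p under 0.05, limma-voom called 0 and DESeq2 called 2. Between passages 4 and 1 of the leaders 2 of 5 were called, 1 each way, against 20.0% (10.8% and 9.17%). These shares rest on 5 genes, and the 5 comparisons with the parental line share its 3 libraries.

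**Figure D1:**
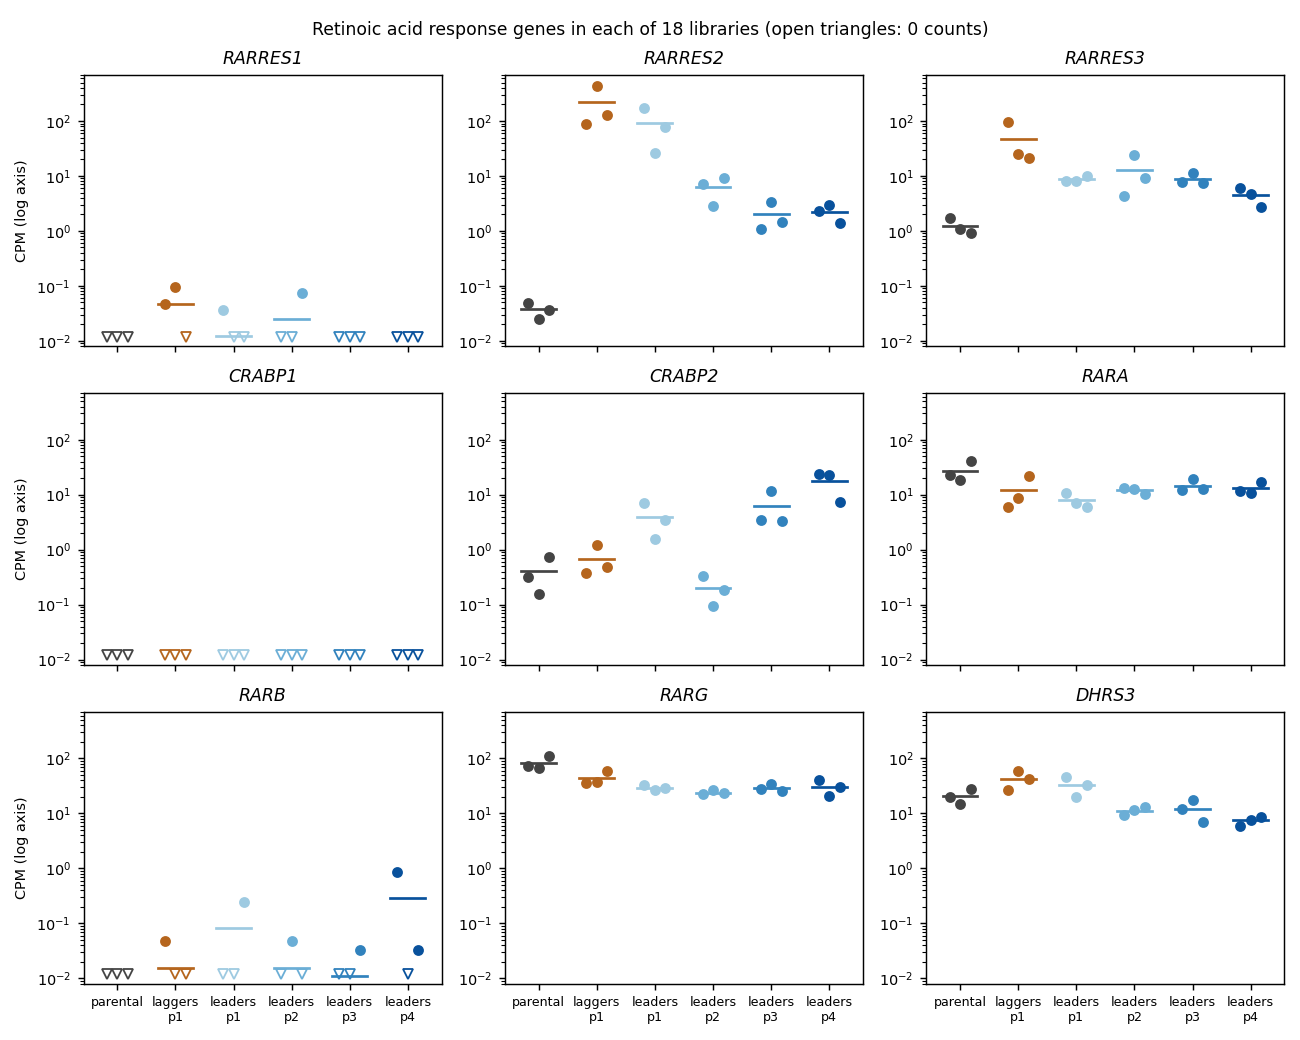
Level of each of the 9 genes in each of the 18 libraries, in CPM on a log axis shared by all panels, with a bar at the group mean and open triangles at the foot of the axis for libraries with 0 counts (p1 to p4 are the passages). RARRES2 spans 0.0255 to 435 CPM, RARA and RARG are highest in the parental line, and CRABP1 has no count in any library.

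RARG was the most abundant of the 3 receptors per unit of length in the parental line, at 16.2 CPM per kilobase of exon against 5.81 for RARA, while RARB had 0 counts there. In the parental libraries RARG stood at 71.5, 67.3 and 111 CPM. It stood at 36.1, 37.9 and 58.5 CPM in laggers and at 33.0, 26.9 and 28.9 CPM in passage 1 leaders. Every one of these 6 libraries lay below every parental library. The later leaders held the same low level, with 22.1, 26.2 and 23.8 CPM at passage 2, 27.4, 34.7 and 25.1 CPM at passage 3, and 39.9, 20.9 and 30.7 CPM at passage 4. None of these 9 libraries reached the lowest parental one, and the leader groups overlapped each other.

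The fall of RARG was called in each injected group. On the log2 scale it was -0.91 ± 0.26 (SE) in laggers (edgeR adjusted p = 0.0115), -1.49 ± 0.27 in passage 1 leaders (edgeR adjusted p = 0.00032) and -1.79 ± 0.27 in passage 2 leaders (edgeR adjusted p = 0.000161). It was -1.52 ± 0.27 at passage 3 and -1.45 ± 0.26 at passage 4 (edgeR adjusted p = 0.000709 and 0.000891). Without parental replicate 3, the highest library, the lagger difference was -0.65 and lost its call (edgeR adjusted p = 0.068). Between passages 4 and 1 the RARG difference was 0.04, with a 95% interval of -0.51 to 0.60.

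RARA, the receptor gene that is expressed most widely across tissues, was lower too, but with more spread. It stood at 23.3, 18.7 and 40.4 CPM in the parental libraries, 5.86, 8.67 and 21.9 CPM in laggers and 10.8, 7.17 and 6.02 CPM in passage 1 leaders. Lagger replicate 3 lay within the parental range, and the other 5 of these injected libraries lay below it. At later passages RARA stood at 13.5, 12.8 and 10.4, then 12.2, 19.1 and 12.8, then 11.9, 10.6 and 17.3 CPM, and passage 3 leader replicate 2 was the one that reached the parental range. The fall at passage 1 was -1.78 ± 0.43 in leaders (edgeR adjusted p = 0.00306) and -1.18 ± 0.42 in laggers (edgeR adjusted p = 0.034).

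The lagger call for RARA was lost without parental replicate 3, lagger replicate 1 or lagger replicate 2 (edgeR adjusted p = 0.167, 0.119 and 0.122). At passage 2 the difference was -1.16 ± 0.42 (edgeR adjusted p = 0.0453), and the call was lost without parental replicate 1 or 3 or any of the 3 passage 2 leaders (edgeR adjusted p = 0.06 to 0.229). At passages 3 and 4 RARA was -0.90 and -1.05 against the parental line and not called by edgeR (adjusted p = 0.125 and 0.0713), with 95% intervals of -1.78 to -0.02 and -1.93 to -0.17. Exons of RARA overlap the antisense gene RARA-AS1 in GENCODE 29, and the library kit does not mark strand, so reads from the 2 cannot be told apart.

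RARB, the receptor gene that retinoic acid itself induces in many cells, was barely detected. It had 29 counts in all 18 libraries together, and 0 in the parental line, where 3 counts over the group would be 0.0282 CPM. Of the 29 counts, 19 lay in passage 4 leader replicate 1 and 6 in passage 1 leader replicate 3, and 4 libraries had 1 each. RARB was thus a matter of single libraries and was not tested. Its exons also overlap those of TOP2B on the other strand.

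The binding protein CRABP2 had the largest rise over the parental line at passage 4 among the 5 tested members. It stood at 0.323, 0.153 and 0.740 CPM in the parental line and 0.378, 1.20 and 0.490 CPM in laggers, which overlapped. In leaders it stood at 6.96, 1.58 and 3.45 CPM at passage 1 and at 0.334, 0.0938 and 0.184 CPM at passage 2. All 3 passage 1 leaders lay above every parental and lagger library, and the passage 2 leaders lay back in or under the parental range. CRABP2 then stood at 3.43, 11.7 and 3.30 CPM at passage 3 and 24.3, 22.4 and 7.47 CPM at passage 4. The level of CRABP2 was thus not in order of passage, since passage 2 stood below passages 1, 3 and 4 with no overlap.

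Against the parental line the CRABP2 rise was 3.34 ± 0.75 on the log2 scale at passage 1 (edgeR adjusted p = 0.002), 3.94 ± 0.77 at passage 3 (edgeR adjusted p = 0.0016) and 5.50 ± 0.81 at passage 4 (edgeR adjusted p = 0.000157). Without passage 3 leader replicate 2, which stands apart, the passage 3 rise was 3.08 and stayed called (edgeR adjusted p = 0.0073). The difference in laggers was 0.82 (edgeR adjusted p = 0.418) and that at passage 2 was -0.94 (edgeR adjusted p = 0.435). CRABP2 was 2.17 ± 0.68 higher at passage 4 than at passage 1 (edgeR adjusted p = 0.0339), and this call was lost without passage 1 leader replicate 2 or 3 or passage 4 leader replicate 1 or 2 (edgeR adjusted p = 0.0846 to 0.126). Between passage 1 leaders and laggers it was 2.52 ± 0.74 higher in leaders, which edgeR did not call (adjusted p = 0.177, 95% interval 0.96 to 4.08) and DESeq2 did (adjusted p = 0.026). Its relative CRABP1 had 0 counts in all 18 libraries, which over the parental group allows up to 0.0282 CPM.

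DHRS3, which lowers retinal and is induced by retinoic acid in many cells, was high at passage 1 and low later. It stood at 19.6, 15.0 and 27.9 CPM in the parental line, 26.5, 58.7 and 42.8 CPM in laggers and 45.1, 19.9 and 32.9 CPM in passage 1 leaders. These 3 groups overlapped. From passage 2 on DHRS3 stood at 9.31, 11.5 and 12.9 CPM, then 12.0, 17.8 and 6.91 CPM, then 5.90, 7.74 and 8.72 CPM. Every passage 4 library lay below every parental and every passage 1 library.

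From passage 1 to passage 4 DHRS3 fell by 2.13 on the log2 scale, with an SE of 0.39 (edgeR adjusted p = 0.00158), and the call held in each of the 6 fits that left out a library. Against the parental line it was -1.48 ± 0.38 at passage 4 (edgeR adjusted p = 0.00928), which also held in each of 6. In laggers it was 1.04 ± 0.37 higher (edgeR adjusted p = 0.0373), but the call was lost without parental replicate 1 or 2 or lagger replicate 2 (edgeR adjusted p = 0.0978, 0.13 and 0.171). In leaders DHRS3 was 0.65 at passage 1, -0.88 at passage 2 and -0.77 at passage 3 against the parental line, none of them called (edgeR adjusted p = 0.165, 0.0865 and 0.149).

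**Figure D2:**
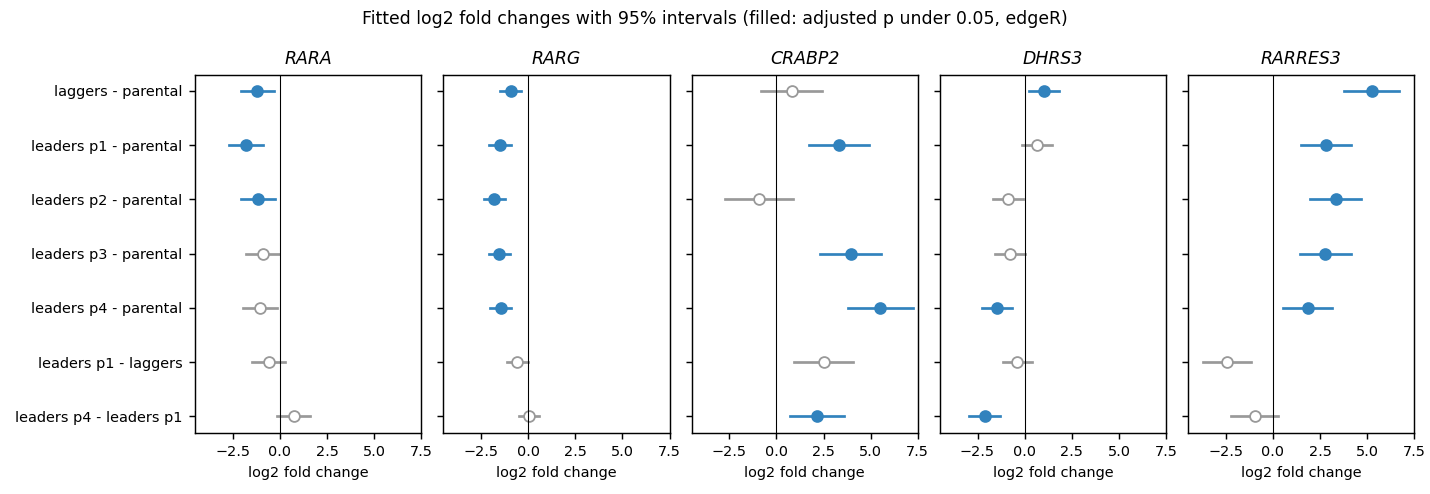
Fitted log2 fold change (horizontal axis) of the 5 tested genes other than RARRES2 in 7 comparisons (rows), with 95% intervals. Filled points passed an edgeR adjusted p of 0.05. RARG is below 0 and RARRES3 above 0 in all 5 comparisons with the parental line, and DHRS3 and CRABP2 are the 2 called between passage 4 and passage 1 leaders, in opposite directions.

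RARRES2, the chemerin gene, had 2, 1 and 1 counts in the parental libraries, or 0.0498, 0.0255 and 0.0370 CPM, which is at the edge of detection. It stood at 88.9, 435 and 127 CPM in laggers and at 170, 25.8 and 77.8 CPM in passage 1 leaders. The spread within each of these groups was wide and the groups overlapped. In later leaders RARRES2 stood at 7.06, 2.86 and 9.03 CPM at passage 2, 1.11, 3.41 and 1.45 CPM at passage 3, and 2.32, 2.91 and 1.39 CPM at passage 4. Passage 1 leaders did not overlap passage 2, passages 2, 3 and 4 overlapped, and the lowest of the 9 later libraries still lay above the highest parental one.

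As ratios of counts scaled to library size, RARRES2 was 6037-fold the parental level in laggers, with a 95% interval for counting error alone of 2357 to 22161, and 2776-fold without lagger replicate 2. In passage 1 leaders it was 2611-fold (1019 to 9585), and 1439-fold without replicate 1. The wide intervals come from the 4 parental counts and leave out the spread between libraries. They use the values that chose the set and are no test of the rise. At passages 2, 3 and 4 the ratio was 174, 50.8 and 56.9. Per kilobase of exon, RARRES2 averaged 113 CPM in laggers, the highest level of any of the 9 genes in any group, and 0.0195 in the parental line, below every other tested member there.

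RARRES3 was higher than in the parental line at every passage. It stood at 1.74, 1.10 and 0.925 CPM in the parental line, 96.8, 25.3 and 21.5 CPM in laggers and 8.02, 8.21 and 10.1 CPM in passage 1 leaders. The 3 groups did not overlap, and lagger replicate 1 was the highest library of all. At passages 2, 3 and 4 RARRES3 stood at 4.34, 24.4 and 9.33, then 7.75, 11.1 and 7.30, then 6.12, 4.79 and 2.68 CPM. Every injected library lay above the highest parental one.

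The rise of RARRES3 over the parental line was 5.24 ± 0.69 in laggers (edgeR adjusted p = 3.71e-05), and 4.21 without lagger replicate 1. In leaders it was 2.79 ± 0.63 at passage 1 (edgeR adjusted p = 0.00196) and 3.32 ± 0.64 at passage 2 (edgeR adjusted p = 0.00121), with 2.44 at passage 2 without replicate 2 of that passage. It was 2.78 ± 0.63 at passage 3 (edgeR adjusted p = 0.00455). At passage 4 it was 1.83 ± 0.62 (edgeR adjusted p = 0.0361), a call that was lost without any 1 of the 3 parental libraries or without passage 4 leader replicate 1 or 2 (edgeR adjusted p = 0.0512 to 0.12). RARRES3 was -2.45 ± 0.60 in passage 1 leaders against laggers, with no overlap, which edgeR did not call (adjusted p = 0.108, 95% interval -3.72 to -1.17) and DESeq2 did (adjusted p = 0.00345).

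RARRES1 had 6 counts in all, 3 of them in laggers, 1 in passage 1 leaders and 2 in passage 2 leaders, and was not tested. Its exons overlap those of MFSD1 on the other strand. The 3 genes named as retinoic acid responders therefore had different levels: RARRES2 and RARRES3 were expressed in the injected groups, and RARRES1 was at the edge of detection.

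Within the 3 passage 1 leader libraries, RARRES2, CRABP2 and DHRS3 had the same order, with replicate 1 highest and replicate 2 lowest. RARG had this order too, over a narrower range of 26.9 to 33.0 CPM, and RARA and RARRES3 did not. Among the laggers replicate 2 was highest for RARRES2, CRABP2 and DHRS3, whereas RARRES3 was highest in replicate 1 and RARA and RARG in replicate 3. With 3 libraries a group this is a description only.

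Over the 18 libraries, the genes whose log2 CPM followed RARRES2 most closely were FAM174A, HERPUD1, FTX, ANKRD37 and PHACTR2, with Pearson r of 0.967, 0.948, 0.946, 0.943 and 0.94. HERPUD1, a component of the degradation machinery of the endoplasmic reticulum, averaged 62.0 ± 6.83 CPM in the parental line, 787 ± 198 CPM in laggers, 438 ± 68.6 CPM in passage 1 leaders and 107 ± 10.6 CPM in passage 4 leaders (SD, n = 3). RARRES3 was most like BST2, an interferon-induced membrane protein, ENO3 and PARP10, with r of 0.908, 0.908 and 0.891. CRABP2 was most like GATA3, SPINT2 and SERPINB8 (r of 0.844, 0.838 and 0.805), and GATA3, a transcription factor, averaged 0.0423 CPM in parental libraries, 0 at passage 2 and 4.56 CPM at passage 4. RARA was most like PTBP1, POLRMT and COASY (0.962, 0.956 and 0.955), RARG like BRSK2, PIF1 and TUBA3FP (0.94, 0.934 and 0.93), and DHRS3 like ING4, IRX5 and DLX2 (0.919, 0.915 and 0.913). The 18 points share their groups and library make-up, so these values describe likeness of pattern in these libraries.

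Markers of fibroblasts, cells that a nerve also holds, had their highest sums at passage 1, where RARRES2 and DHRS3 were also highest. At passages 2 and 3 the sums lay above the parental range and the DHRS3 means below the parental mean. The sum of 10 fibroblast markers was 206 to 392 CPM in the parental line, 1316 to 2243 CPM in laggers and 1028 to 2369 CPM in passage 1 leaders. It was 797 to 1575 CPM at passage 2, 614 to 1454 CPM at passage 3 and 325 to 565 CPM at passage 4. Of the 9 tested markers, 5 were called higher and 0 lower in laggers, 5 higher and 2 lower in passage 1 leaders, 3 higher and 0 lower at passages 2 and 3, and 3 higher and 1 lower at passage 4. Of all tested genes, 21.5% were higher and 17.8% lower in laggers, and 23.2% and 22.4% in passage 1 leaders. The shares were 15.1% and 14.8% at passage 2, 13.8% and 10.8% at passage 3, and 14.8% and 12.9% at passage 4. Between passages 4 and 1, 4 of 9 were lower, beside 9.17% of all tested genes. The markers did not share a pattern. COL3A1 and COL1A2 made up most of the sum in the injected groups, at 876 and 627 CPM in laggers, and were called higher in all 5. COL1A1 averaged 160 ± 70.5 CPM in the parental line and was called lower in leaders of passages 1 and 4 (17.9 ± 15.4 and 6.61 ± 5.47 CPM), and FBLN1 was called lower in passage 1 leaders (101 ± 32.5 to 46.8 ± 23.5 CPM). PDGFRA, a receptor of fibroblasts, was called higher in all 5 injected groups and was highest at passage 2 (0.112 CPM in the parental line, 2.53 CPM in laggers, then 10.0, 63.7, 57.3 and 13.9 CPM over the 4 leader passages in turn). DCN and LUM, which define fibroblasts more narrowly, averaged 9.40 and 8.39 CPM in laggers, 4.09 and 3.97 CPM in passage 1 leaders, and at most 0.187 CPM in the parental line. At passages 2, 3 and 4 DCN averaged 0.148, 0.0405 and 0.101 CPM, and LUM 0.849, 0.348 and 0.0277 CPM. DPT had 0 counts in the laggers and in the parental line.

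Within passage 1 the highest replicates differed and the lowest were the same. Among leaders the marker sum was highest in replicate 3 and RARRES2 in replicate 1, and both were lowest in replicate 2 (1028 and 25.8 CPM). Among laggers the sum was highest in replicate 3 and RARRES2 in replicate 2, and both were lowest in replicate 1 (1316 and 88.9 CPM). The part of these cells in the levels of RARRES2 and DHRS3 was not tested. Of other cells, markers of macrophages summed to at most 5.25 CPM in any library. Of these PTPRC, a gene of all white blood cells, had 0 counts in the parental line and in laggers and was called higher in leaders of all 4 passages, at 2.23, 3.09, 2.51 and 0.675 CPM. Markers of endothelial cells summed to at most 13.5 CPM and of adipocytes to at most 0.63 CPM in any library. Schwann cell markers summed to 212 to 268 CPM in the parental line, nearly all of it MBP at 214 CPM, and to 14.1 to 67.7 CPM in the injected groups. Of the 4 tested Schwann cell markers, MBP was called lower in all 5 injected groups and CDH19 higher in laggers and passage 1 leaders. CDH19, an adhesion protein of Schwann cells, had 0 counts in the parental line and averaged 1.20 ± 1.54 CPM in laggers, 1.31 ± 1.16 CPM in passage 1 leaders and 0.345, 0.033 and 0.124 CPM at passages 2, 3 and 4. PRX and NGFR were not called in any comparison, and SOX10 and PMP2 had at most 8 counts in a group.

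**Figure D3:**
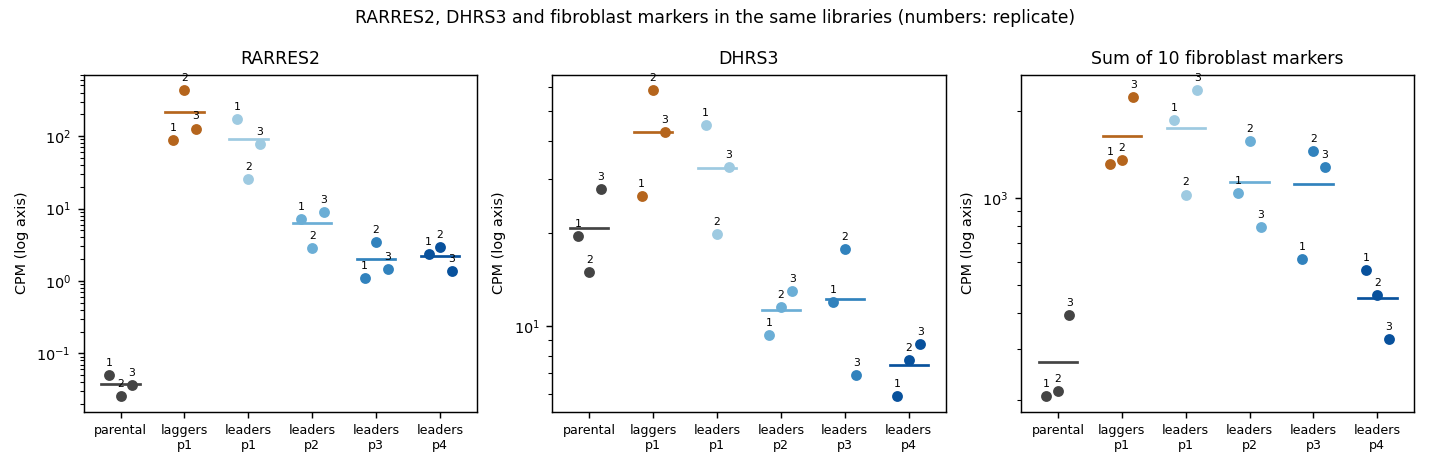
RARRES2, DHRS3 and the summed level of 10 fibroblast markers in each library, in CPM on log axes, with bars at group means and the replicate number beside each point. All 3 are highest at passage 1 and lower at passage 4. Within each passage 1 group the highest replicate differs between RARRES2 and the marker sum, and the lowest replicate is the same.

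The wider retinoid pathway was read from a list of 62 genes, of which 35 were tested. The 62 also hold 3 chemerin receptors and 5 relatives of RARRES1 and RARRES3, so the shares and medians below are not of retinoid genes alone. In laggers 9 of the 35 were called, 4 higher and 5 lower, and in leaders of passages 1 to 4 it was 15 (5 higher, 10 lower), 10 (3 and 7), 10 (4 and 6) and 9 (2 and 7). As shares these are 25.7%, 42.9%, 28.6%, 28.6% and 25.7%, beside the 39.3%, 45.7%, 29.9%, 24.6% and 27.7% of all genes given above. The median log2 difference of the 35 genes was -0.16, -0.29, -0.39, -0.15 and -0.21, beside 0.09, 0.07, 0.00, 0.01 and 0.03 over all tested genes. Between passages 4 and 1, 9 were called (4 higher, 5 lower), or 25.7%, beside 20% of all tested genes.

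Of the genes that take up, carry and store vitamin A, 5 of 9 were tested. STRA6, the membrane receptor that takes up retinol, averaged 31.1 ± 8.56 CPM in the parental line and was lower in laggers (8.04 ± 6.16 CPM, log2 -1.96 ± 0.50, edgeR adjusted p = 0.00576), in passage 1 leaders (11.4 ± 3.93 CPM) and in passage 4 leaders (4.28 ± 1.77 CPM, -2.86 ± 0.52, edgeR adjusted p = 0.000818). RBP2, a cellular retinol carrier, was called higher in all 5 injected groups at low levels, although at passage 4 all 26 of its counts lay in 1 library and the other 2 had 0, with 1.30 ± 0.523 CPM in laggers against 0.0123 CPM in the parental line. FABP5, which can carry retinoic acid to another nuclear receptor, PPARD, was called higher in passage 1 leaders (4.03 ± 1.67 to 9.06 ± 2.37 CPM), and stood at 7.57 ± 4.10 CPM in laggers and 8.13 ± 0.925 CPM at passage 2, which were not called (edgeR adjusted p = 0.11 and 0.0928). LRAT, which esterifies retinol for storage, had 0 counts in every library.

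Of 17 enzymes grouped under the synthesis of retinal and retinoic acid, 10 were tested. They include reductases such as DHRS4, so the counts do not stand for synthesis alone. Of the 10, 2 were higher and 1 lower in laggers, and 2 and 2 in passage 1 leaders. It was 2 and 4 at passage 2, 1 and 3 at passage 3, and 1 and 4 at passage 4. Over all tested genes, the shares higher and lower were 21.5% and 17.8% in laggers and 23.2% and 22.4% in passage 1 leaders. At passages 2, 3 and 4 these shares were 15.1% and 14.8%, 13.8% and 10.8%, and 14.8% and 12.9%. The 3 ALDH1A enzymes differed in pattern. ALDH1A2 was called higher in all 5 injected groups, from 0.435 ± 0.187 CPM in the parental line to 2.55 ± 0.169 to 4.47 ± 1.56 CPM in the group means. ALDH1A1 averaged 709 ± 206 CPM in parental libraries and 735 ± 71.7 CPM in passage 1 leaders, and fell to 279 ± 47.5 CPM at passage 3 and 36.2 ± 16.8 CPM at passage 4 (log2 -4.29 ± 0.35, edgeR adjusted p = 6.82e-07). ALDH1A3 averaged 213 ± 15.0 CPM in the parental line and 19.6 ± 16.4 CPM in laggers (-3.45 ± 0.79, edgeR adjusted p = 0.00284). In leaders of passages 1, 2 and 3 it averaged 71.8 ± 80.0, 46.9 ± 19.0 and 69.5 ± 42.8 CPM. At passage 4 it averaged 237 ± 160 CPM, which did not pass the test (edgeR adjusted p = 0.898).

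The reductase DHRS4 was lower in leaders of all 4 passages, at 13.9 to 16.6 CPM in the group means against 33.2 ± 7.21 CPM. RDH11 was higher in passage 1 leaders (103 ± 17.7 to 177 ± 19.3 CPM, log2 0.77 ± 0.18, edgeR adjusted p = 0.00224) and fell from there to 88.2 ± 2.5 CPM at passage 4 (edgeR adjusted p = 0.00133). The enzymes that break retinoic acid down, CYP26A1 and CYP26B1, were low throughout and not called in any of the 7 comparisons, and CYP26C1 had 0 counts.

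Among receptor partners and coregulators, 12 of 13 were tested, and 6 of them were lower in passage 1 leaders with 0 higher, beside 22.4% lower and 23.2% higher over all tested genes. In laggers it was 2 lower and 0 higher, and at passages 2, 3 and 4 it was 2 lower and 0 higher, 0 lower and 1 higher, and 1 lower and 0 higher. All tested genes gave 17.8% lower and 21.5% higher in laggers. At passages 2, 3 and 4 they gave 14.8% and 15.1%, 10.8% and 13.8%, and 12.9% and 14.8%. EP300, a coactivator, and PPARD were among those lower in passage 1 leaders and higher again at passage 4, and stood at 72.9 ± 1.91 and 11.4 ± 2.79 CPM in passage 1 leaders against 143 ± 32.4 and 27.2 ± 1.23 CPM in the parental line. NCOR1, a corepressor, was lower in laggers (280 ± 58.9 to 155 ± 1.14 CPM) and in leaders of passages 1 and 2.

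Of 12 further textbook targets of retinoic acid 3 were tested, since most HOX genes of the list had few counts. TGM2, the tissue transglutaminase, averaged 2060 ± 679 CPM in the parental line, 118 ± 58.7 CPM in laggers and 54.0 ± 0.555 CPM in passage 1 leaders (log2 -5.25 ± 0.45, edgeR adjusted p = 6.89e-07). It stood at 247 ± 86.3, 332 ± 92.0 and 1252 ± 427 CPM at passages 2, 3 and 4, and the rise from passage 1 to 4 was 4.54 ± 0.44 (edgeR adjusted p = 9.61e-06). Between passages 1 and 4 of the leaders TGM2 thus moved opposite to RARRES2 and DHRS3. Against the parental line the group means of TGM2 and DHRS3 both lay lower at passages 2, 3 and 4. MEIS2 was higher in leaders of passages 1 and 3 (42.8 ± 4.24 to 67.3 ± 11.6 and 69.5 ± 3.66 CPM). It was not called higher in laggers (54.3 ± 8.11 CPM).

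Of the chemerin receptors, CMKLR1 had 10 counts in all libraries together and CCRL2 was not analysed here. GPR1 averaged 2.25 ± 0.83 CPM in the parental line and was lower at passage 3 (0.242 ± 0.17 CPM, edgeR adjusted p = 0.0131) and passage 4 (0.329 ± 0.205 CPM, edgeR adjusted p = 0.0203). Of 5 relatives of RARRES1 and RARRES3, 2 were tested, and HRASLS, a phospholipase of the RARRES3 family, was higher in laggers (5.64 ± 0.44 to 10.9 ± 1.44 CPM, edgeR adjusted p = 0.0165).

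**Figure D4:**
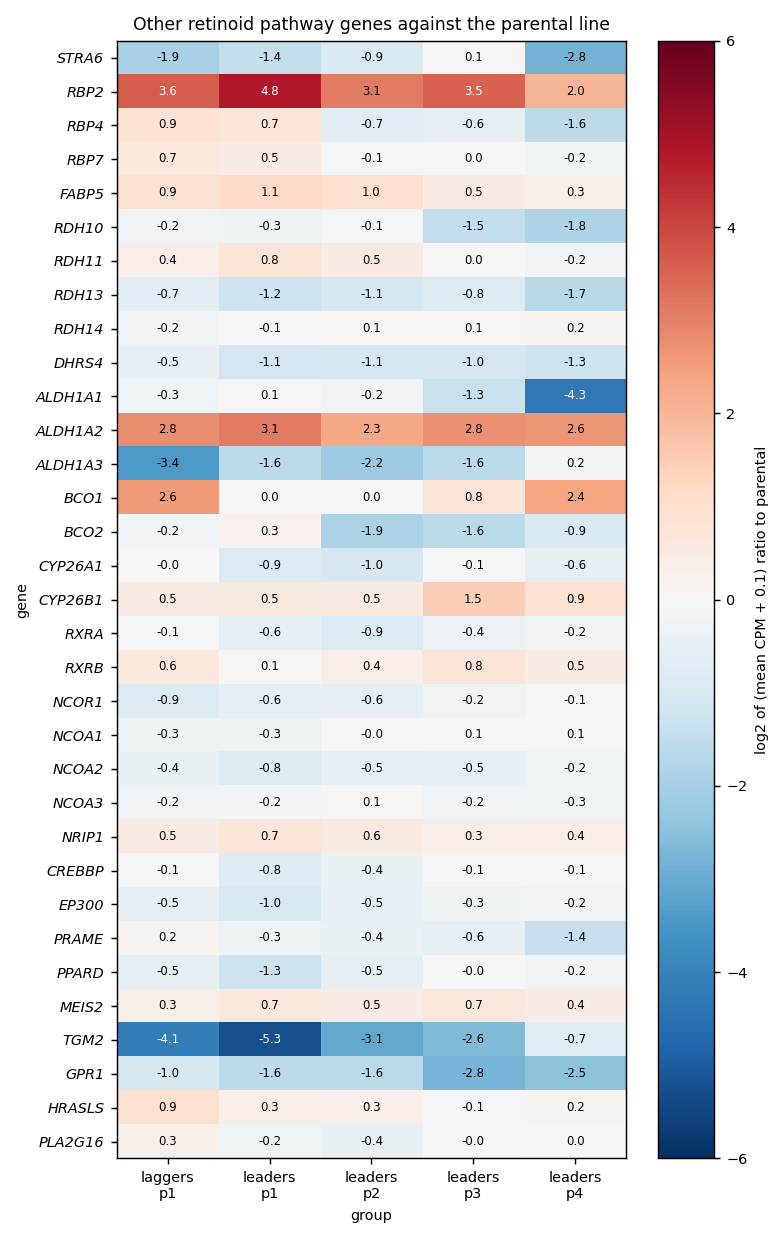
Of the 35 tested genes of the wider pathway list, 33 are shown in the 5 injected groups, as the log2 ratio of mean CPM to the parental line with 0.1 CPM added to both (red above, blue below the parental line). GPR1 is shown as a chemerin receptor, and HRASLS and PLA2G16 as relatives of RARRES3. TGM2 is lowest in passage 1 leaders, ALDH1A1 at passage 4, and the group mean of ALDH1A2 is above that of the parental line in every group.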

How the data were processed

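RNA was sequenced from 18 libraries in 6 groups of 3. The authors deposited raw counts per gene, 1 column per library. The submitters' processing notes name cutadapt 1.6, STAR 2.5.0a, HTSeq 0.5.3 and DESeq 1.22.1, and the build and annotation behind the counts were not given in the sources used here. Per the labels' protocols, cDNA was amplified with a kit that does not mark strand, so overlapping genes on opposite strands are counted together or lost as ambiguous. Entries that name no gene took 27.6% to 60.6% of a library and were left out.

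Counts were tested with edgeR 4.0.16 in R 4.3.3 (quasi-likelihood F test, TMM scaling, the edgeR filter on expression) in a single fit of the 18 libraries with a mean for each group, with Benjamini-Hochberg adjustment over 16187 genes in each of 7 comparisons. The SE of a log2 fold change is its size divided by the square root of F, and 95% intervals use 12 residual and 4.25 prior degrees of freedom. Depth was 15113462 to 39373248 gene counts. Floors are 3 counts, and floors and intervals of count ratios cover counting error only. Alternatives were DESeq2 1.42.0, limma-voom (limma 3.58.1), no filter, the replicate number as a block, only the compared groups, each library left out in turn and, added after the data were seen, a fit without passage 3 leader replicate 2.

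The members, the gene lists and the markers were chosen with earlier results of these data known. Named genes are all 9 members in every library, up to 4 called genes with the smallest adjusted p or genes read by level from each list, and the 5 genes most like RARRES2 and 3 most like each other tested member (mean of at least 1 CPM, Pearson correlation of log2 CPM). ALDH1A3 falls outside the 4 and was chosen after its values were seen. Promoter windows come from RefSeq for GRCh38.p14, and exon lengths and overlaps from GENCODE 29. Some genes of these lists enter the counts but are not reported here by name. The edgeR step was tested on simulated counts for laggers against the parental line.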

Additional observations from a re-analysis of the deposited data

Results flagged for a closer look

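CRABP2 and DHRS3 passed the test of the difference between passages 1 and 4 of the leaders, that is, of whether their differences from the same parental line were alike at the 2 passages. For CRABP2 the difference from the parental line was 2.17 larger on the log2 scale at passage 4 (3.34 at passage 1, 5.50 at passage 4, edgeR adjusted p = 0.0339), but only 2 of the 6 fits that left out a library kept this call (adjusted p up to 0.126), and the fit with the replicate number as a block lost it (0.0559). For DHRS3 it was -2.13 (0.65 at passage 1, -1.48 at passage 4, edgeR adjusted p = 0.00158), a call kept in each of those 6 fits, with a sign that differs between the passages, although the passage 1 difference was not called. All 3 passage 4 libraries lay above all 3 passage 1 leader libraries for CRABP2 and below them for DHRS3. How many of all tested genes separated in this way, here or in other comparisons, was not counted.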

How the results depend on the processing

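Of 415 log2 fold changes recomputed for the 5 tested members under other settings, 375 kept their direction and their side of the threshold, 29 kept the direction but lost the call, 7 gained a call and 4 changed sign. The sign changes were in differences that edgeR with all libraries did not call: RARA between passage 1 leaders and laggers without lagger replicate 3 (0.149, from -0.59 with all libraries, with a range of -0.92 to 0.149 over the libraries left out), and RARG between passages 4 and 1 with limma-voom (-0.00568), without passage 1 leader replicate 2 (-0.0754) and without passage 4 leader replicate 1 (-0.197), with a range of -0.197 to 0.238. Of the 5 members, laggers against the parental line gave 4 called, 1 with only the compared groups in the fit, and 2 to 4 when a library was left out. Passage 1 leaders against laggers gave 0, but 2 with DESeq2 and 2 with no filter. Over all genes that comparison gave 10 called with edgeR (3 higher, 7 lower), 372 with DESeq2 (191 and 181), 27 with limma-voom (8 and 19), 257 with no filter (162 and 95), 3 with the block, 0 with only the compared groups (1289 at an unadjusted p under 0.05), and 0 to 95 without 1 library. Laggers against the parental line gave 6363, and 3482 with only the compared groups. Passage 2 gave 4846, and 3187 without parental replicate 3 or 3208 without leader replicate 3. Passage 3 gave 3976, and 2614 without parental replicate 3 or 2473 without leader replicate 1. Passage 4 against passage 1 gave 3237, and 2122 without passage 1 replicate 3 or 1481 without passage 4 replicate 3. Passage 4 against passage 1 gave 2 members, 1 with the replicate block, and 1 to 2 when a library was left out.

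The replicate numbers did not pair the samples: deviations of same-numbered libraries correlated at -0.41 to 0.40 over 45 pairs, 8 of them over 0.1, and a library correlated best with its own number in 17 of 90 cases. Under the replicate block CRABP2 between passages 4 and 1 was 2.10 (edgeR adjusted p = 0.0559), and the calls of DHRS3 in laggers and RARA at passage 2 were also lost (0.0567 and 0.0648). With DESeq2, which changes scaling and model together, the median of all genes in passage 1 leaders against the parental line was 0.10, and 0.07 with edgeR. Depth limits RARB, RARRES1, CRABP1 and the parental level of RARRES2, where 4 counts set every ratio.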
